A study of Mus musculus with 4 samples.

Results

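The granzyme family was measured by RNA-seq in activated mouse CD8+ T cells, as the 9 genes whose symbol in the per-library tables was *Gzma*, *Gzmb*, *Gzmc*, *Gzmd*, *Gzme*, *Gzmf*, *Gzmg*, *Gzmk* or *Gzmm*. They are 9 of the 17559 genes listed, and all 9 were among the 12943 genes tested. The 2 NaBu libraries came from cells given 1 mM NaBu for 12 h and the 2 control libraries from cells given the control treatment. NaBu commonly stands for sodium butyrate, the salt of a fatty acid with a short chain that inhibits histone deacetylases. All 4 libraries were from C57BL/6 OT-I cells of tissue labelled LN, whose transgenic T cell receptor recognises an ovalbumin peptide. Before the exposure, the cells had been purified above 95% by magnetic negative selection and stimulated for 2 d, in medium with 10 ng/ml IL-2, on plates coated with anti-CD3 at 1 µg/ml and with anti-CD28 at 2 µg/ml. They then spent 2 d in the same concentration of IL-2 without the antibodies.

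Granzymes are serine proteases that cytotoxic lymphocytes store in secretory granules and release towards a target cell, which they enter with the help of the pore-forming protein perforin. They are made as inactive precursors and become active in the granule when cathepsins remove a short leading peptide. Granzyme B cleaves after aspartate and starts apoptosis through caspases and their substrates, and granzyme A is a tryptase. Activation through the T cell receptor and IL-2 is known to induce granzyme genes in CD8+ T cells. *Gzmc* to *Gzmg* belong to a rodent group of duplicated genes beside *Gzmb*.

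The genes lie at 3 places in the mouse genome (GRCm38, also called mm10). *Gzmb* (gene 14939, chr14:56258836-56262334) stands at an end of a row of 7 granzyme genes, all on the minus strand, that spans 144.7 kb. It is followed by *Gzmc* (gene 14940, chr14:56231397-56241647), *Gzmf* (gene 14943, chr14:56205263-56211407), *Gzmn*, *Gzmg* (gene 14944, chr14:56156581-56159579), *Gzmd* (gene 14941, chr14:56129556-56132603) and *Gzme* (gene 14942, chr14:56117619-56120625). *Gzma* (gene 14938, chr13:113093824-113100981) and *Gzmk* (gene 14945, chr13:113171630-113180965) are neighbours on the minus strand of chromosome 13, 70.6 kb apart. *Gzmm* (gene 16904, chr10:79689020-79695261) is on the plus strand of chromosome 10.

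*Gzmc* to *Gzmg* are copies close enough to share sequencing reads, which bears on every value of theirs. Between these 5 genes the coding sequences were 71.6% to 93.3% identical over 10 pairs, with *Gzmd* and *Gzme* at 93.3%. *Gzmb* was 65.4% to 76.3% identical to them, and *Gzma*, *Gzmk* and *Gzmm* were 50.2% to 55.7% identical to other granzymes. The longest run of coding bases that *Gzmd* and *Gzme* share without a difference was 96 bases, at chr14:56130310-56130405 in *Gzmd* and chr14:56118361-56118456 in *Gzme*. It is shown, 5′ to 3′ on the minus strand. A read lying wholly inside this stretch could not by itself tell these genes apart.

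Gzmd and Gzme, shared run: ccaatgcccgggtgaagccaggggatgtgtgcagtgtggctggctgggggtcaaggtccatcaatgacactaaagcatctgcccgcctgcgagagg

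Of all 50-base stretches of the GENCODE vM21 transcript of *Gzmd*, 21.9% occurred without a difference in another granzyme transcript. The share was 20.6% for *Gzme*, 19.8% for *Gzmg*, 7.36% for *Gzmf* and 4.14% for *Gzmc*. It was 0% for *Gzmb*, *Gzma*, *Gzmk* and *Gzmm*. Just below that length, *Gzmb* and *Gzmc* shared a coding run of 49 bases. *Gzmd* shared the most with *Gzme*, which held 12.0% of its stretches, and *Gzmg* held 7.1%, while *Gzmc* held 0.328%. With 100-base stretches the shares were 0.231% for *Gzmd*, 0.247% for *Gzmg* and 0% for the other 7 genes. The sources used here do not give the read length, so how many reads were open to division is not known. RSEM, the counting tool, divides a read that matches several genes by an estimate. The deposited counts of *Gzma*, *Gzmk* and *Gzmm* were whole numbers in every library (within 0.005), and those of the other 6 genes were not. *Gzmb* is among these 6, although none of its 50-base stretches was shared. The shares describe 1 GENCODE transcript per gene, which need not be the sequence that was counted. The transcript of *Gzmb* compared here has 1436 bases and the deposited length is 1418, and for *Gzmk* these are 1028 and 792. How many of the reads of *Gzmb* were divided with *Gzmc* or another gene was not tested.

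**Figure D1:**
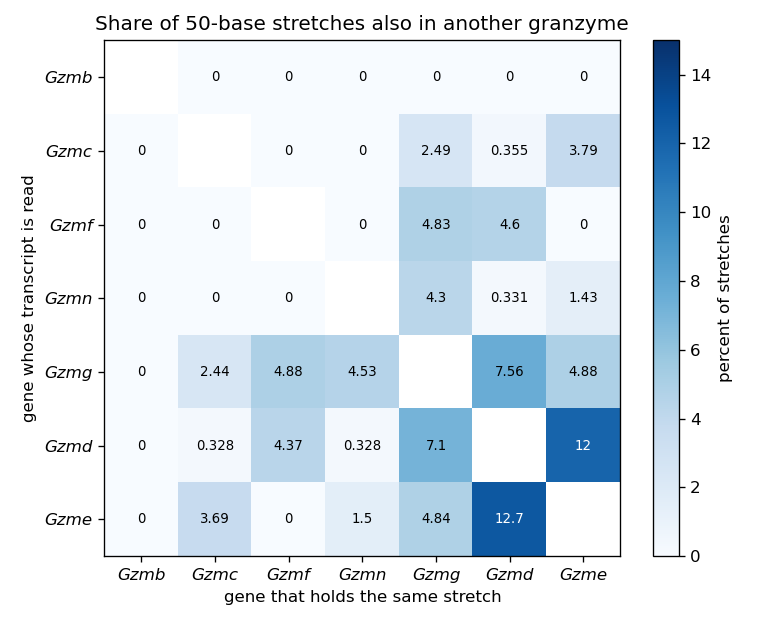
Percent of all 50-base stretches of a granzyme transcript (rows) that occur without a difference in another granzyme transcript (columns), for the 7 genes of chromosome 14 in order of position. *Gzmb* shared none of this length, and the pair *Gzmd* and *Gzme* had the highest shares, 12.0% and 12.7%.

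The libraries held 19857701 to 20548571 expected counts each. The first question was how the NaBu libraries differed from the control libraries in granzyme transcripts. Over all genes, 4471 (34.5%) were higher and 4413 (34.1%) lower in NaBu by the quasi-likelihood test of edgeR, with a threshold of 0.05 on p-values adjusted by Benjamini-Hochberg, so a call in this comparison is common. With a trend of fold change over transcript GC content removed, 3593 were higher and 5632 lower. Over all tested genes, the median log2 fold change was 0.005 on the TMM scale used here and 0.102 with library totals as the scale, so changes are relative to that shift. Fold changes from the test are on the TMM scale and so differ from ratios of the FPKM values given beside them, toward smaller rises and larger falls. The labels leave unsaid whether replicates were separate animals or cultures, and the p-values therefore reflect the spread between these libraries alone, which may be technical. In bulk RNA, fewer cells of a type and less RNA per cell cannot be told apart.

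The cells matched their label in that the defining CD8 T cell genes were abundant, with *Cd8a* at 93.88 and 96.96 FPKM in NaBu and 118.38 and 115.87 FPKM in control. Of 8 such markers, 6 were lower and 1 was higher in NaBu, and their summed level was 2720 and 2740 FPKM in NaBu and 2870 and 2760 FPKM in control. Natural killer cells also carry granzymes. Of 8 natural killer markers, 4 were tested, 2 were lower and none was higher, and the list summed to 24.2 and 25.9 FPKM in NaBu and 31.1 and 32.6 FPKM in control. The highest of them was *Fcer1g*, at 13.92 and 14.45 FPKM in NaBu and 14.41 and 16.49 FPKM in control, without a call. *Klrb1c* had 4.94 and 5.57 FPKM in NaBu and 10.47 and 9.24 FPKM in control. *Klre1* had 3.44 and 4.0 FPKM in NaBu and 4.44 and 5.53 FPKM in control. *Tyrobp*, not called, had 1.8 and 1.71 FPKM in NaBu and 1.14 and 0.87 FPKM in control. *Klra8* was at 0 in every library, and *Ncr1* was at 0 in both NaBu libraries and at 0.07 and 0.1 FPKM in control. Of 9 mast cell and basophil markers, 5 were tested, with 1 higher and 1 lower. That list summed to 7.74 and 6.25 FPKM in NaBu and 5.39 and 6.0 FPKM in control, with *Mcpt4*, *Fcer1a* and *Tpsb2* at 0 throughout. Of 9 myeloid markers, 3 were tested, with *Itgam* and *Mpeg1* higher and *Xcr1* lower. The myeloid list summed to 7.88 and 6.63 FPKM in NaBu and 3.0 and 3.0 FPKM in control, with *Csf1r*, *Lyz2* and *S100a8* at 0 in every library. Of 4 markers of CD4 and regulatory T cells, 3 were tested and 2 were higher, and the list summed to 27.1 and 27.2 FPKM in NaBu and 21.4 and 19.6 FPKM in control, nearly all of it *Zbtb7b*. The other higher marker was *Cd4* itself, at 0.66 and 0.65 FPKM in NaBu and 0.02 and 0.03 FPKM in control, a rise of 24.1-fold at a low level (edgeR adjusted p = 8.87e-06). None of the 4 gamma delta T cell or 5 B cell markers reached the level needed for a test. The part of other cells in the granzyme values was not tested.

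Granzyme transcripts took up a larger share of the library after NaBu. The 9 genes together held 1.676% (exact binomial 95% interval 1.67 to 1.682) and 1.685% (1.679 to 1.69) of all expected counts in the NaBu libraries, against 0.875% (0.871 to 0.879) and 0.872% (0.868 to 0.876) in the control libraries. The groups did not overlap, and the means, 1.68% ± 0.00622 in NaBu and 0.873% ± 0.00252 in control (SD, n = 2 each), differed by 0.807 percentage points, a ratio of 1.92. The intervals cover counting error only. Most of that difference was *Gzmb*, and without it the other 8 genes held 0.315% and 0.337% in NaBu, against 0.204% and 0.209% in control.

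By direction, 6 of the 9 genes were called higher (*Gzmb*, *Gzma*, *Gzmk*, *Gzmc*, *Gzmg* and *Gzmf*), *Gzmd* was called lower, and *Gzme* and *Gzmm* were not called. Over all tested genes, 34.5% were called higher and 34.1% lower. The FPKM values of the groups did not overlap, with NaBu higher, for 7 of the 9, where this was so for 48.0% of all tested genes. The median log2 fold change of the 9 genes was 0.52, beside 0.005 over all tested genes, and the median size of change over all tested genes was 0.46. Both counts of higher genes lie above the background shares, but the counts were not tested. *Gzmc*, *Gzmg* and *Gzmf* are copies of one another, so they are not counted here as separate cases. Of the 50-base stretches of *Gzmg*, 2.44% occurred in *Gzmc* and 4.88% in *Gzmf*. *Gzmc* and *Gzmf* shared 0%. The log2 fold changes of the family ran from -1.24 for *Gzmd* to 0.93 for *Gzmb*, beside the median size of 0.46 over all tested genes. Against a 1.5-fold change (glmTreat), 3779 genes passed, *Gzmb* and *Gzmd* among them. How many genes changed by as much as these was not counted.

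**Figure D2:**
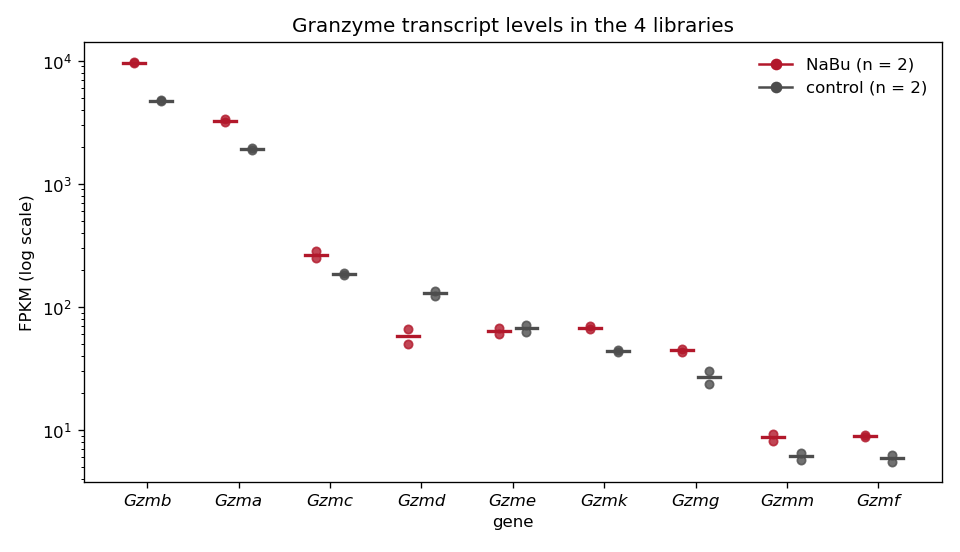
FPKM of each granzyme gene (log axis) in the 2 NaBu and 2 control libraries, 1 point per library. *Gzmb* and *Gzma* stand far above the other genes in both groups, NaBu points lie above control points for 7 genes, and *Gzmd* is the gene whose NaBu points both lie below its control points.

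*Gzmb*, encoding granzyme B, was the most abundant of the family and the one that rose most. Its level was 9677.07 and 9582.55 FPKM in the NaBu libraries, against 4773.88 and 4709.44 FPKM in the control libraries. Replicates lay close together and the groups far apart, with means of 9630 ± 66.8 FPKM in NaBu and 4742 ± 45.6 FPKM in control (SD, n = 2 each). By FPKM, *Gzmb* ranked 1 among all genes in both NaBu libraries and 5 in both control libraries. The fold change was 1.9 (log2 0.93 ± 0.08 SE, 95% interval 0.75 to 1.1, edgeR adjusted p = 2.17e-06).

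*Gzma*, encoding the tryptase granzyme A, had 3159.35 and 3346.22 FPKM in NaBu, against 1867.8 and 1968.34 FPKM in control. Both NaBu values were above both control values, and the gene ranked 8 and 7 among all genes in NaBu and 26 and 22 in control. It rose 1.59-fold (log2 0.67 ± 0.07 SE, edgeR adjusted p = 1.3e-05). Its chromosome 13 neighbour *Gzmk*, encoding a further tryptase of the family, had 66.37 and 69.57 FPKM in NaBu, against 43.19 and 44.92 FPKM in control. *Gzmk* rose 1.44-fold (log2 0.53 ± 0.07 SE, edgeR adjusted p = 9.22e-05), again with no overlap between the groups. None of the 50-base stretches of *Gzma* or *Gzmk* occurs in another granzyme.

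*Gzmm*, encoding granzyme M, which is known mainly from natural killer cells and cleaves after methionine and leucine, was among the lowest of the family. It had 9.34 and 8.11 FPKM in NaBu, against 6.57 and 5.71 FPKM in control. Although these values do not overlap, the change in counts did not pass the test (log2 0.31 ± 0.14 SE, 95% interval 0.0 to 0.63, edgeR adjusted p = 0.0734). The transcript length that the deposited files give for *Gzmm* varied between libraries, between 1158 and 1292 bases, and FPKM depends on it. Of the 18 other settings, 7 called *Gzmm* higher and 11 did not. With library totals as the scale the log2 value was 0.41 (edgeR adjusted p = 0.0255), and in limma fits on log2 FPKM the adjusted p was 0.00699 to 0.0428. With the GC trend removed the log2 value was 0.01 (edgeR adjusted p = 0.965), and DESeq2 gave an adjusted p of 0.208. Leaving out a library gave log2 values of 0.18 without NaBu replicate 1, 0.43 without NaBu replicate 2, 0.45 without control replicate 1 and 0.17 without control replicate 2, of which edgeR called the value without control replicate 1 (adjusted p = 0.0381). In such fits 1 group has a single library, which is assumed to vary like the other group.

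The duplicated genes beside *Gzmb* did not move together. *Gzmc*, encoding granzyme C, was the highest of them, with 247.98 and 284.71 FPKM in NaBu, against 187.12 and 182.27 FPKM in control. Both NaBu values were higher, and it rose 1.35-fold (log2 0.43 ± 0.07 SE, edgeR adjusted p = 0.00037). *Gzmg* had 43.27 and 45.54 FPKM in NaBu, against 29.95 and 23.75 FPKM in control. The control values of *Gzmg* differed from each other more than its NaBu values did, and neither reached them, with a rise of 1.55-fold (log2 0.63 ± 0.11 SE, edgeR adjusted p = 0.000341). *Gzmf*, the least abundant of these copies, had 9.19 and 8.84 FPKM in NaBu, against 6.31 and 5.5 FPKM in control. Its rise of 1.43-fold (log2 0.52 ± 0.14 SE, edgeR adjusted p = 0.00654) rested on 167 and 160 counts in NaBu and 117 and 103 counts in control. DESeq2 gave *Gzmf* an adjusted p of 0.0516, and without NaBu replicate 1 edgeR gave 0.0526.

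*Gzmd* went the other way. It had 50.45 and 66.39 FPKM in NaBu, against 135.13 and 123.4 FPKM in control, and the means were 58.4 ± 11.3 FPKM in NaBu and 129 ± 8.29 FPKM in control (SD, n = 2 each). The NaBu libraries differed from each other by more than the control libraries did, but the higher of them was still below the lower control. *Gzmd* was 2.37-fold lower (log2 -1.24 ± 0.11 SE, 95% interval -1.48 to -1.0, edgeR adjusted p = 2.58e-06). It was called lower in all 17 other settings that gave it a value of its own, with log2 fold changes of -1.46 to -1.06.

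*Gzme*, the closest copy of *Gzmd* and its neighbour at a distance of 8.9 kb, had 60.34 and 67.91 FPKM in NaBu, against 71.65 and 63.03 FPKM in control. The groups overlapped, and the change did not pass the test (log2 -0.17 ± 0.08 SE, 95% interval -0.36 to 0.02, edgeR adjusted p = 0.104). The interval leaves room for a fall, and 3 of the 17 other settings called one. The log2 fold change was -0.35 (adjusted p = 0.00343) with the GC trend removed and -0.17 (adjusted p = 0.0384) with a crossed replicate block, both by edgeR. Leaving out a library gave -0.26 without control replicate 2 (edgeR adjusted p = 0.0261), -0.08 without control replicate 1, -0.09 without NaBu replicate 1 and -0.26 without NaBu replicate 2, and edgeR called the first of these alone. How the reads shared by *Gzmd* and *Gzme* were divided in each library was not tested.

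**Figure D3:**
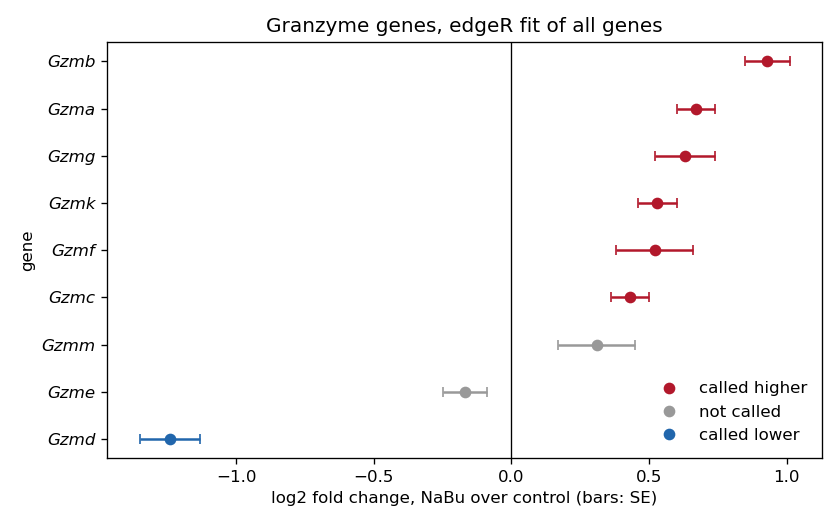
Log2 fold change, NaBu over control, of the 9 granzyme genes from the edgeR fit of all genes; points are estimates, bars are 1 SE, and colour gives the call. The 6 genes right of 0 other than *Gzmm* were called higher, *Gzmd* lies at -1.24, and *Gzme* and *Gzmm* were not called.

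Since reads can move between copies, the 5 genes *Gzmc* to *Gzmg* were also summed. The summed level was 411.2 and 473.4 FPKM in NaBu, against 430.2 and 398.0 FPKM in control. The groups overlapped, with means of 442.3 ± 44.0 FPKM in NaBu and 414.1 ± 22.8 FPKM in control (SD, n = 2 each). On the TMM scale the sum was 392.8 ± 39.5 CPM (counts scaled to library size) in NaBu and 392.7 ± 21.0 CPM in control, a log2 ratio of 0.0, which lay between -0.11 and 0.1 when a library was left out. As a share of all counts the sum was 0.03777% and 0.04348% in NaBu and 0.03945% and 0.03649% in control. So the group as a whole, with *Gzmc* in it, was not seen to differ between treatments beyond the spread of the libraries, while its parts did.

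Inside that sum, the mean level of *Gzmc* was 81.6 FPKM higher in NaBu and that of *Gzmg* 17.6 FPKM higher, and the mean of *Gzmd* fell by 70.8 FPKM. *Gzmc* made up 60.5% and 60.4% of the counts of the 5 genes in NaBu, against 43.7% and 46.0% in control. *Gzmd* made up 12.2% and 14.0% in NaBu, against 31.4% and 31.0% in control. The shares of *Gzme* were 14.4% and 14.1% in NaBu and 16.4% and 15.6% in control, so it outweighed *Gzmd* in both NaBu libraries, by little in the second, and *Gzmd* outweighed it in both control libraries. Smaller sums over the closest copies were chosen after the values were seen. *Gzmd* and *Gzme* summed to 110.8 and 134.3 FPKM in NaBu, against 206.8 and 186.4 FPKM in control. With *Gzmg* added, as the other close copy, the sum was 154.1 and 179.8 FPKM in NaBu and 236.7 and 210.2 FPKM in control. Without *Gzmc*, the sum of *Gzmd* to *Gzmg* was 163.2 and 188.7 FPKM in NaBu and 243.0 and 215.7 FPKM in control. In each of these smaller sums both NaBu values were below both control values. *Gzmc*, *Gzmf* and *Gzmg*, picked as the copies called higher, summed to 300.4 and 339.1 FPKM in NaBu and 223.4 and 211.5 FPKM in control.

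**Figure D4:**
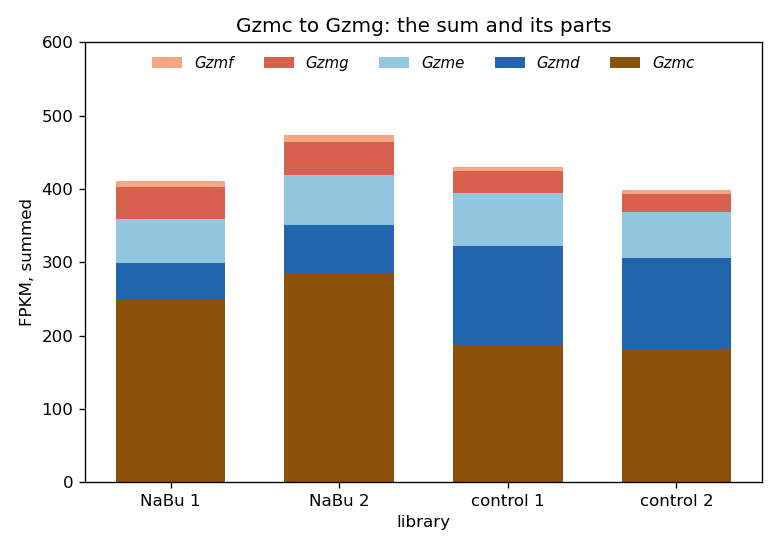
Summed FPKM of *Gzmc* to *Gzmg* in each library, with the bar divided by gene. The bars reach 411.2 and 473.4 FPKM in NaBu and 430.2 and 398.0 FPKM in control, and the *Gzmd* part is smaller and the *Gzmc* part larger in NaBu.

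Along chromosome 14 the sign of the change followed position in part. *Gzmb*, *Gzmc*, *Gzmf* and *Gzmg*, the first genes of the row apart from the barely detected *Gzmn*, were higher. *Gzmd*, beyond them, was lower, and *Gzme* at the far end was not called. With so few genes this order is a description.

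**Figure D5:**
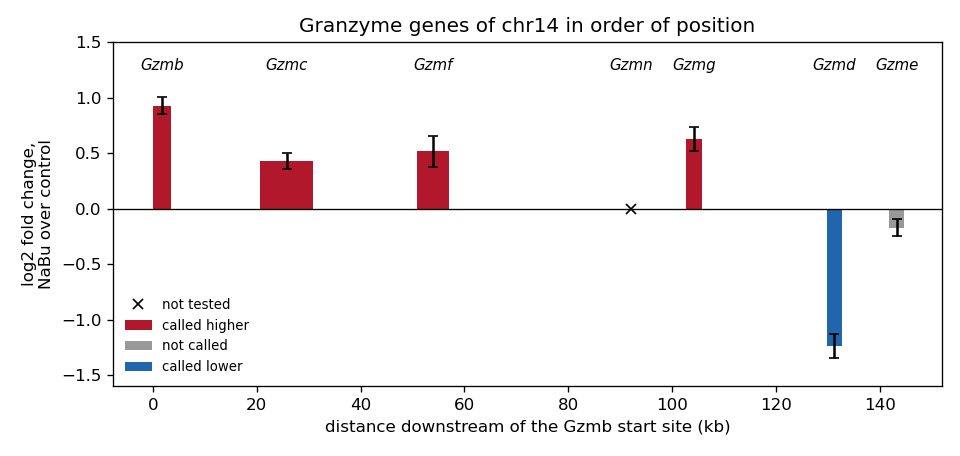
Log2 fold change, NaBu over control, of the chromosome 14 granzyme genes against the distance of each gene from the start site of *Gzmb*, in kb. Bars are as wide as the gene, error bars are 1 SE, and a cross marks *Gzmn*, which was not tested. *Gzmb*, *Gzmc*, *Gzmf* and *Gzmg* lie above 0, and *Gzmd* and *Gzme*, the farthest, lie below 0, *Gzme* without a call.

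The order of levels per transcript length changed below the first 3 genes. In the control libraries the order was *Gzmb*, *Gzma*, *Gzmc*, *Gzmd*, *Gzme*, *Gzmk*, *Gzmg*, and then *Gzmm* and *Gzmf*, whose values overlapped. In the NaBu libraries *Gzmb*, *Gzma* and *Gzmc* kept their places, the values of *Gzmk*, *Gzme* and *Gzmd* overlapped one another, *Gzmg* followed, and *Gzmf* and *Gzmm* again overlapped. Within each NaBu library, though, *Gzmk* was above *Gzme* and *Gzme* above *Gzmd*, the reverse of each control library. The values were 66.37, 60.34 and 50.45 FPKM in NaBu replicate 1, and a closer 69.57, 67.91 and 66.39 FPKM in NaBu replicate 2. *Gzmb* made up 72.6% and 71.1% of the summed FPKM of the family in NaBu, against 67.0% and 66.1% in control. The share of *Gzma* was 23.7% and 24.8% in NaBu and 26.2% and 27.6% in control, and that of *Gzmd* 0.379% and 0.493% in NaBu and 1.9% and 1.73% in control.

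Promoter sequence was compared because the duplicated genes have related promoters. Over the 250 bases before the start site in the RefSeq table (GRCm38.p6), which holds all 9 genes, the promoters of *Gzmc* to *Gzmg* were 70.2% to 94.8% identical. *Gzmd* and *Gzme* had the highest identity. *Gzmd*, called lower, was 80.5% identical to *Gzmc*, 74.5% to *Gzmf* and 78.6% to *Gzmg*, the copies called higher. The *Gzmb* promoter was 44.1% to 47.5% identical to them. The window below shows 60 bases of each, 5′ to 3′ on the minus strand, with 8 bases after a run shared by all 5 in capitals. The coordinates are chr14:56234679-56234738 for *Gzmc*, whose start in this table lies inside the listed gene span, and chr14:56211454-56211513 for *Gzmf*. They are chr14:56159621-56159680 for *Gzmg*, chr14:56132619-56132678 for *Gzmd* and chr14:56120652-56120711 for *Gzme*.

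Gzmc: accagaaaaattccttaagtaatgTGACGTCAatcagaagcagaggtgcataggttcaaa
Gzmf: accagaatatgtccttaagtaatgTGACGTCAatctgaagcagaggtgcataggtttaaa
Gzmg: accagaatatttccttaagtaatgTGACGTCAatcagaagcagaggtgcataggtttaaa
Gzmd: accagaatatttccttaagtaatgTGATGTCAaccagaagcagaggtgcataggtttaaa
Gzme: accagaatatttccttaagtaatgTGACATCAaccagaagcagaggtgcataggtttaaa

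The capitals read TGACGTCA, the cyclic AMP response element, in *Gzmc*, *Gzmf* and *Gzmg*, the 3 copies that were higher. They read TGATGTCA in *Gzmd* and TGACATCA in *Gzme*, each the reverse complement of the other. The element, searched on both strands, occurs in 1.55% of 32851 promoter windows of the same length, and it starts at -57 in *Gzmc*, -82 in *Gzmf* and -77 in *Gzmg*. These promoters are copies of one another and the motifs were chosen with the expression values known, so the match is a description of 5 related sequences. Whether the element is bound in these cells, or has a part in the changes, was not tested.

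*Gzmb* is shown with its whole window, chr14:56262335-56262584, as the member that rose most. Capitals mark AP-1 and RUNX motif matches.

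Gzmb: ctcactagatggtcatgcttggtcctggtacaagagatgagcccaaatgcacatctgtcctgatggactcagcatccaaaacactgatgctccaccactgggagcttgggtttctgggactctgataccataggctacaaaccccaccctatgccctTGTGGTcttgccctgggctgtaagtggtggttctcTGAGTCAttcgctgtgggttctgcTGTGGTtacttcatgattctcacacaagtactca

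The AP-1 motif TGANTCA starts at -58 of *Gzmb* and occurs in 6.75% of all windows, and in 1 of the 9 granzyme windows. The RUNX motif TGTGGT starts at -93 and -34 of *Gzmb*. It occurs in 14.0% of all windows and in 8 of the 9 granzyme windows, 5 of which are the copies *Gzmc* to *Gzmg*, and was not found in that of *Gzmk*. The T-box motif GGTGTGA, in 3.33% of all windows, was found in that of *Gzmk* alone among the 9. TATAAA, in 12.4% of all windows, was in none of the 9. All motifs were searched on both strands, and none of these matches overlaps another in the sequence shown.

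Genes that act with granzymes were then read from lists made for this family, beside the 34.5% of all tested genes that were higher and the 34.1% that were lower. Of 18 genes of granule delivery and loading, 9 were higher, 4 were lower and 5 were not called, with a median log2 fold change of 0.2. *Prf1*, encoding perforin, had 586.43 and 612.6 FPKM in NaBu, against 139.13 and 109.48 FPKM in control, a rise of 4.51-fold (edgeR adjusted p = 3.03e-08), larger than that of any granzyme gene. *Igf2r*, encoding a mannose 6-phosphate receptor of the kind that carries granzymes to the granule, rose 2.33-fold, and *Lamp2*, a lysosomal membrane protein gene, rose 1.93-fold. Lower were *Unc13d*, whose product primes granules for release (3.0-fold), *Nkg7*, a granule membrane protein gene (1.91-fold), and *Vamp8*, a membrane fusion gene (1.44-fold). *Srgn*, encoding the proteoglycan that holds granzymes in the granule, had 278.87 and 287.68 FPKM in NaBu and 281.97 and 290.51 FPKM in control, was not called (edgeR adjusted p = 0.118), and was named after its values were seen.

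Of 4 genes of granzyme activation, 2 were higher and 2 lower. *Ctsc*, encoding cathepsin C, the main enzyme that removes the leading peptide of granzymes, had 11.44 and 11.29 FPKM in NaBu, against 12.48 and 13.69 FPKM in control, and was 1.23-fold lower (edgeR adjusted p = 0.0022). *Cst7*, encoding cystatin F, an inhibitor of cathepsin C, was 1.5-fold lower. *Ctsl*, encoding cathepsin L, rose 7.24-fold from a low base, with 4.49 and 3.78 FPKM in NaBu and 0.54 and 0.53 FPKM in control.

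Of 5 genes of granzyme-inhibiting serpins, 2 were higher, 2 were lower and 1 was not called, near the shares over all tested genes. *Serpinb9*, encoding the granzyme B inhibitor that protects the killer cell itself, had 86.66 and 89.55 FPKM in NaBu, against 46.88 and 49.6 FPKM in control, and rose 1.71-fold (edgeR adjusted p = 1.37e-06). *Serpinb1a* rose 2.74-fold, and *Serpinb6b* and *Serpinb6a* were 1.58-fold and 1.55-fold lower.

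Of 20 regulators known to act on granzyme or effector genes, 11 were higher, 4 lower and 5 not called, with a median log2 fold change of 0.33, beside 34.5% higher and 34.1% lower over all tested genes. The largest rises were those of the transcription factor genes *Irf4* (3.46-fold), *Prdm1*, encoding Blimp-1 (3.07-fold), and *Foxo1* (2.95-fold). *Irf4* had 77.28 and 73.19 FPKM in NaBu, against 19.66 and 20.98 FPKM in control. *Foxo1* is known mainly for holding back effector genes. *Bcl6*, *Runx1* and *Batf* were 1.74-fold, 1.42-fold and 1.42-fold lower. *Runx3*, of the same list as *Runx1*, was higher and far more abundant, and was named after its values were seen. It had 107.35 and 121.32 FPKM in NaBu, against 61.99 and 58.55 FPKM in control, a rise of 1.77-fold (edgeR adjusted p = 2.98e-06). *Runx1* had 2.33 and 2.56 FPKM in NaBu and 3.5 and 3.34 FPKM in control. Of 8 genes of the IL-2 receptor signal, 5 were higher, 1 lower and 2 not called. The feedback inhibitor genes *Socs3* and *Socs1* rose 5.11-fold and 2.3-fold, *Jak1* rose 1.47-fold, and *Il2rg*, encoding the common gamma chain, was 1.27-fold lower.

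The genes whose pattern over the 4 libraries was most like that of *Gzmb* were *Il12rb2*, an IL-12 receptor chain gene, *Glrx*, encoding glutaredoxin, and *Psap*, encoding a lysosomal saposin precursor. They were taken from 729 genes with a mean of 100 FPKM or more by the distance between centred log2 CPM values, which was 0.08, 0.097 and 0.105. *Il12rb2* had 189.86 and 180.86 FPKM in NaBu, against 94.82 and 93.5 FPKM in control. The 4 points fall in 2 treatment groups, so any gene with a change of this size lies close, and the likeness is a description.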

How the data were processed

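RNA-seq was made from 2 NaBu and 2 control samples, grouped by sample title. Per the submitters' processing notes, the authors used Bowtie2, RSEM and the mm10 build. The sources used here do not give versions, library kit, strand use, read length or annotation release. For each gene, a deposited file gives the authors' expected count, which RSEM estimates and which need not be whole, and the authors' FPKM, scaled to transcript length and mapped total. FPKM values were used as deposited for levels.

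Expected counts were rounded and tested with edgeR 4.0.16 in R 4.3.3 (TMM factors 1.035 and 1.0335 for NaBu and 0.968 and 0.9658 for control, filterByExpr defaults, quasi-likelihood F test without covariates, Benjamini-Hochberg adjustment over 12943 genes, threshold 0.05). SE is the absolute log2 fold change over the square root of F, and 95% intervals are 2.22 SE wide to each side. Exact permutation with 2 libraries per group cannot go below p = 0.333 (two-sided), so none was run. Sums over granzymes are given without a test result. The test was tried on simulated data first. Replicates within a group differed by more than counting noise (chi-square per degree of freedom 2.77 in NaBu and 7.27 in control). A total of 3 counts, taken as a floor, is 0.146 to 0.151 CPM.

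Gene positions and promoters came from RefSeq tables of GRCm38.p6 (17518 of 17559 identifiers matched) and transcript sequences from GENCODE vM21. Coding and promoter identity came from global alignment in Biopython 1.88. Alternatives were library totals, median-of-ratios factors, no filter, at least 5 CPM in 2 libraries, DESeq2 1.42.0, limma 3.58.1 (voom, and log2 FPKM with pseudocounts of 1 and 0.1), glmTreat against a 1.5-fold change, a replicate block, *Gzmc* to *Gzmg* collapsed to 1 feature, and leaving out each library. Removal of the GC trend (a GC value existed for 95.78% of tested genes) and a crossed block were added after seeing the data.

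All 9 members are named. From each pathway list, up to 3 called genes per direction are named by size of change, if the groups do not overlap and the higher one has a mean of at least 1 FPKM. *Srgn* and *Runx3* are named outside this rule. The members, lists and markers were chosen with earlier results of these data known.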

Additional observations from a re-analysis of the deposited data

How the results depend on the processing

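No granzyme gene changed direction in any of the 18 alternatives. *Gzmb* stayed higher and *Gzmd* lower past the threshold in each that gave them a value. Against a 1.5-fold change (glmTreat), 3779 genes passed, 2214 higher and 1565 lower, and *Gzmb* was the 1 granzyme gene still higher, with adjusted p of 0.147 for *Gzma*, 0.381 for *Gzmg*, 0.907 for *Gzmf* and 1 for *Gzmc* and *Gzmk*. With *Gzmc* to *Gzmg* collapsed, 3 of the 4 remaining single genes were higher and 0 lower. The loss of the calls of *Gzmc*, *Gzmd*, *Gzmf* and *Gzmg* is by construction, while *Gzma*, *Gzmb* and *Gzmk* still passed the edgeR test. Instead of 1, 2 granzyme genes were lower with the GC trend removed, with the crossed replicate block and without control replicate 2, the second being *Gzme* each time (adjusted p 0.00343, 0.0384 and 0.0261); the cause was not tested. Leaving out a library, which leaves a lone sample assumed to vary like the other group, gave 7099 to 8850 called genes, 3617 to 4418 higher, 3479 to 4432 lower, 5 to 7 granzyme genes higher and 1 to 2 lower, a share difference of 0.803 to 0.811 points and a summed log2 ratio of -0.11 to 0.1.

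Replicate numbers are not said to pair samples, and same-numbered deviations correlated at -0.127 over 5691 genes. A replicate block gave 8853 called genes, 4468 higher and 4385 lower, with 7 granzyme genes higher (*Gzmm* added, adjusted p = 0.0485) and 1 lower, and the crossed block 9073 called genes. *Gzmm* also passed with a 5 CPM filter (0.0284), but not with no filter (0.182), limma-voom (0.0792) or the crossed block (0.0571). The share difference was 1.26 points as a share of summed FPKM and 0.119 without *Gzmb*. The summed log2 ratio was 0.89 with *Gzmb* added and 0.0 with *Gzmn* added. Depth limits *Gzmf* and *Gzmm*, with 103 to 220 counts per library.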

Other observations

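*Gzmn*, the remaining granzyme gene of chromosome 14 (gene 245839, chr14:56165786-56174612), was barely detected, with 0.16 and 0.55 FPKM in NaBu and 0.16 and 0.38 FPKM in control, and was too low to be tested. Among 12 listed protease genes that include *Gzmn* and related granule proteases of mast cells and neutrophils, 6 were at 0 in every library (*Cma2*, *Mcpt1*, *Mcpt2*, *Mcpt4*, *Mcpt9* and *Elane*) and 2 were tested. *Mcpt8*, a basophil protease gene, had 4.04 and 2.87 FPKM in NaBu and 2.03 and 2.6 FPKM in control and was not called (edgeR adjusted p = 0.124). *Prtn3*, encoding proteinase 3, had 2.25 and 1.88 FPKM in NaBu and was listed at 0 in both control libraries (edgeR adjusted p = 1.07e-05), while its chromosome 10 neighbour *Elane* was at 0 throughout.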
